A study of Mus musculus with 16 samples.

Results

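The comparison described here set 8 mouse hearts carrying the Myh6Cre transgene on a Gpr91fl/fl background (Cre hearts) against 8 Gpr91fl/fl hearts without it (floxed hearts), out of 16 hearts in all. Members were chosen by their genotype label alone: every Cre library and every floxed library of the raw count table entered, in an additive model with succinate as a blocking factor, and only the genotype term is reported. Each genotype held 4 hearts given succinate and 4 not given it. All mice went through 12 weeks of a high-fat diet plus L-NAME, which blocks nitric oxide synthase, and so modelled HFpEF (failure of hearts whose ejection fraction is preserved); no heart here is a healthy control. The labels give heart as the tissue and do not state sex, age or the succinate dose. The Myh6 promoter drives Cre in cardiomyocytes, and the floxed hearts carried no Cre, so the Cre transgene and the intended deletion differ together and cannot be told apart. Separate animals are not stated in the labels, and the p-values therefore measure only how these samples spread, which may be technical.

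Gpr91, now named Sucnr1, encodes a G protein-coupled receptor of the cell surface that is activated by succinate released from cells. Adult ventricular muscle runs on cardiac isoforms of its contractile and calcium-handling proteins, such as the calcium pump Atp2a2, the release channel Ryr2 and troponin I of the Tnni3 gene, while skeletal muscle uses separate genes such as Atp2a1, Ryr1 and Tnni2. Heart muscle under load raises a known group of stress and fetal genes, among them Nppa, Nppb, Acta1 and Ankrd1.

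Library totals ran from 27835235 to 34700996 counts, so that 3 counts, the smallest level told from 0, stood for 0.0865 to 0.108 CPM, a scale in which each count is divided by its library's total. Genes with any count numbered 18038 to 18376 in floxed and 18537 to 19130 in Cre hearts, without overlap. The part of this wider detection in the differences of genes near 0 was not tested. Mitochondrially encoded genes took 25.2% ± 1.42 of counts in floxed and 25.9% ± 1.26 in Cre hearts (SD, n = 8 each). The 12 ventricular cardiomyocyte markers summed to 67393 to 83051 CPM in floxed hearts and to 62405 to 82199 CPM in Cre hearts, and 0 of them passed in edgeR or DESeq2 (2 at an unadjusted p under 0.05). In a principal component analysis, the second component, with 12.0% of the variance, had all 8 floxed hearts on one side of 0 and all 8 Cre hearts on the other. In bulk tissue, fewer cells of a type and less RNA per cell cannot be told apart.

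Sucnr1 itself was barely detected and was not lower in the Cre hearts. Its level ranged from 0 to 0.225 CPM in floxed hearts, with 20 counts over the 8 libraries, and from 0.0576 to 0.666 CPM in Cre hearts, with 63 counts. The groups overlapped, and a two-sided exact permutation test within succinate states over 4900 arrangements gave p = 0.0674 for the difference of 0.168 CPM. Leaving out replicate 1 or 4 of the Cre hearts without succinate, or replicate 2 or 4 of those with it, brought the exact p to 0.0380, 0.0486, 0.0408 and 0.0298, in each case with Cre hearts higher. The difference was 0.109 CPM without replicate 3 of the Cre hearts not given succinate. At this depth the gene gives no check of a deletion confined to cardiomyocytes, and the names of the groups rest on the labels. Of the 30 tested genes nearest Sucnr1 in gene order on chromosome 3, 2 were higher in Cre hearts and 0 lower, where 1.18% of all tested genes were higher and 0.589% lower: Igsf10, its immediate neighbour among the tested genes, by 0.64 ± 0.13, and Tiparp by 0.29 ± 0.07 (log2, SE). Both were chosen after their values were seen.

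Between the genotypes, 259 of 14607 tested genes (1.77%) passed an adjusted p of 0.05 in the quasi-likelihood test of edgeR, adjusted by Benjamini-Hochberg. Of these, 173 (1.18% of those tested) were higher in Cre hearts and 86 (0.589%) lower. Large differences ran mostly upwards: 59 of the genes that passed differed at least 2-fold, 50 of them higher and 9 lower. The 8 Cre values lay wholly above or below the 8 floxed values for 65 tested genes (0.445%), 51 above and 14 below, and 54 of the 65 passed the test. The median log2 difference over all tested genes was -0.0056. Before adjustment, 2022 of the 14607 had p under 0.05 in edgeR, and DESeq2 called 592 (4.05%). The list counts below are to be read against these shares. Analysed alone, the 8 hearts without succinate gave 3 calls and the 8 hearts given succinate gave 142. When all 16 hearts were fitted together as 4 groups, the genotype comparison within these states gave 16 and 101 calls. The count was 152 without replicate 3 of the Cre hearts given succinate.

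**Figure D1:**
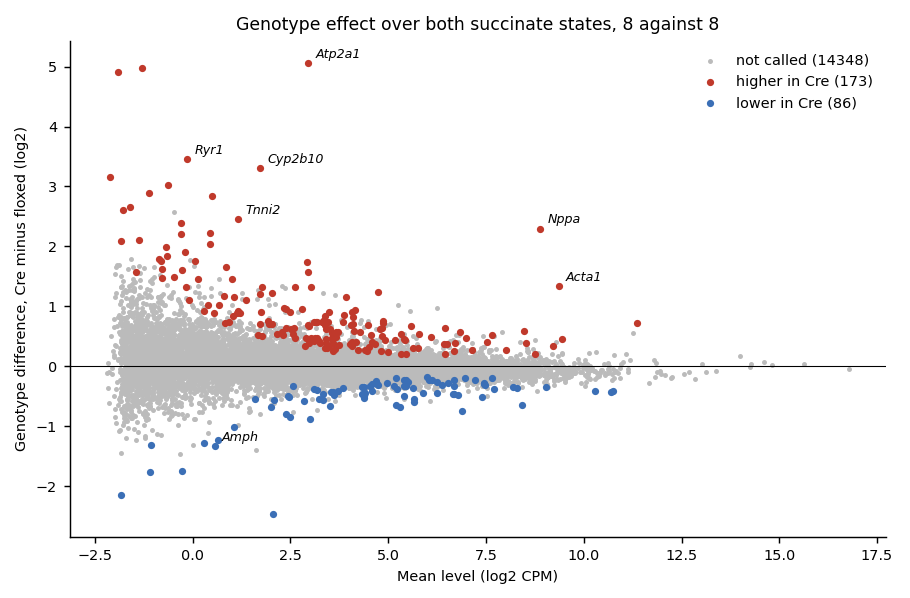
Genotype difference (Cre minus floxed, log2, vertical axis) against mean level (log2 CPM, horizontal axis) for each of the 14607 tested genes. Red points are the 173 genes that passed as higher and blue points the 86 that passed as lower. Atp2a1 stands highest, at 5.06.

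Genes of skeletal-type contraction and calcium handling had the highest median difference of the 26 gene lists. Of the 33 genes listed, 19 were abundant enough in some of the hearts to be tested. Of the 19, 10 rose in Cre hearts, 0 fell and 9 did not pass, against 1.18% of all tested genes that were higher. The median log2 difference over the 19 was 0.68. Tnni1 and Ryr1, with floxed medians of 0.0637 and 0.119 CPM, met the filter only through the Cre hearts and could only be called higher. The count of 10, the 0 that fell and the median thus rest partly on the filter. The lists were chosen with earlier results of these data known, so this count and rank are a description and not independent evidence. The 10 were Atp2a1, Ryr1, Casq1 and Jsrp1 of the sarcoplasmic reticulum, the troponin genes Tnni1, Tnni2, Tnnt1 and Tnnt3, the myosin-binding protein gene Mybpc2 and the skeletal actin gene Acta1. RefSeq start-site windows were found for 7 of the 10; those of Atp2a1, Ryr1, Casq1 and Acta1 are shown because these genes carried the calcium pump, release channel, calcium store and thin filament parts of the finding. Each window is 200 bases on the gene's own strand (minus in all 4), from 250 to 51 bases before the RefSeq start in build GRCm38.p6, which is not the build of the counts. Capitals mark E-boxes (CANNTG, the same on both strands), the core recognised by basic helix-loop-helix factors.
Atp2a1 chr7:126463124-126463323: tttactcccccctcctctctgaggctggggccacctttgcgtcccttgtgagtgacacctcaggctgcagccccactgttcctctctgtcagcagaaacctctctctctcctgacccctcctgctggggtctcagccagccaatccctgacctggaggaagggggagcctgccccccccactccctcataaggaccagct
Ryr1 chr7:29125202-29125401: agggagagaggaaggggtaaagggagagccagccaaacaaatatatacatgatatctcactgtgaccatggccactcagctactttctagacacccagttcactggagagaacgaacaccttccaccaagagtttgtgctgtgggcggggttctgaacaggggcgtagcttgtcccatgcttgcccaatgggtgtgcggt
Casq1 chr1:172219946-172220145: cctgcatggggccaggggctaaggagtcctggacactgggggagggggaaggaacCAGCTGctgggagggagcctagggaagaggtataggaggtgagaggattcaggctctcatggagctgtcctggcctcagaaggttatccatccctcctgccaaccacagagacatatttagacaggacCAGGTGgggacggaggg
Acta1 chr8:123894826-123895025: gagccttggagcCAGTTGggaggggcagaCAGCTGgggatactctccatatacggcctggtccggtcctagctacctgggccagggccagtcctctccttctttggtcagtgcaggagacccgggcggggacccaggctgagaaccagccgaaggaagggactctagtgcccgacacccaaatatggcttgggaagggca

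Casq1 and Acta1 held 2 E-boxes each in these windows, and Atp2a1 and Ryr1 held 0. An E-box was present in 5 of the 7 windows found for the group, against 58.9% of the 27025 gene windows of the same length. The CArG box of serum response factor, searched by name on both strands, lay in the Acta1 window only, 73 bases before the start, against 1.08% of all windows. The MCAT motif (CATTCC, both strands) was in 1 of the 7, that of Mybpc2, against 10.6%, and the MEF2 motif in 0 of the 7, against 2.46%. These are matches of letters within short windows only.

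Atp2a1, which pumps calcium back into the reticulum of fast skeletal fibres, showed the smallest p of all. It was at 0.140, 0.757, 0.311 and 0.273 CPM in the 4 floxed hearts without succinate and at 0.423, 0.507, 0.483 and 0.539 CPM in the 4 with it. Cre hearts stood at 14.5, 12.7, 9.44 and 9.999 CPM without succinate and at 20.5, 16.9, 18.6 and 16.7 CPM with it. Every Cre heart thus lay more than 10-fold above the highest floxed heart, and the fitted difference was 5.06 ± 0.18 on the log2 scale (SE, n = 8 per genotype), 33.3-fold (adjusted p = 4.67e-13). Ryr1, the calcium release channel of skeletal muscle, ran from 0 to 0.386 CPM in floxed hearts (median 0.119) and from 0.789 to 2.21 CPM in Cre hearts (median 1.55). The groups did not overlap, and the difference was 3.45 ± 0.39 (adjusted p = 5.09e-05).

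Casq1, which binds calcium inside the reticulum of skeletal fibres, had floxed values of 1.99 to 8.26 CPM (median 2.73) and Cre values of 7.23 to 18.9 CPM (median 10.04). It overlapped only through replicate 2 of the floxed hearts without succinate, at 8.26 CPM, and differed by 1.74 ± 0.23 (adjusted p = 0.000572). Tnni2, fast skeletal troponin I, had floxed values of 0.281 to 1.08 CPM and Cre values of 2.01 to 5.78 CPM, with no overlap, and differed by 2.46 ± 0.24 (adjusted p = 7.51e-06). Tnni1, the slow skeletal and fetal cardiac troponin I, was near the detection limit at 0.0345 to 0.102 CPM in floxed hearts and reached 0.173 to 0.640 CPM in Cre hearts. It also did not overlap (2.66 ± 0.33, adjusted p = 0.000198). Acta1, skeletal alpha-actin, which the stressed heart also makes, was the most abundant of the group, at 199 to 597 CPM (median 347) against 399 to 1396 CPM (median 981). Its groups overlapped, and it rose by 1.33 ± 0.24 (adjusted p = 0.00906).

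The other 4 members that passed fall outside the naming rule and are given because they complete the count. Tnnt3, fast troponin T, was at 0.121 to 0.421 CPM against 0.329 to 1.80 CPM (2.20 ± 0.31 on the log2 scale). Jsrp1, a protein of the junction between surface membrane and reticulum, differed by 1.75 ± 0.38, Mybpc2, fast myosin-binding protein C, by 0.68 ± 0.11 and Tnnt1, slow troponin T, by 0.48 ± 0.11. Among the 9 that did not pass, Cacna1s, the skeletal voltage sensor that works with Ryr1, was at -0.48 ± 0.14 (adjusted p = 0.0801), and Mylpf, a fast myosin light chain, at 0.80 ± 0.26 (adjusted p = 0.137). The glycogen and glycolysis genes Pygm and Eno3 were at -0.03 ± 0.07 and -0.06 ± 0.14.

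The skeletal-type genes stayed small beside their cardiac partners on the deposited FPKM scale, which allows levels of different genes to be set side by side per length. Atp2a1 was at 0.125 ± 0.0550 FPKM in floxed and 4.34 ± 1.16 FPKM in Cre hearts (SD, n = 8 each), or 0.00727% and 0.265% of Atp2a2, the cardiac pump. Ryr1 was 0.0162% and 0.177% of Ryr2, and Casq1 was 0.741% and 2.27% of Casq2. Acta1 went from 4.28% to 10.4% of the cardiac actin gene Actc1. The partners themselves did not pass the test: Atp2a2 differed by -0.09 ± 0.09, Ryr2 by 0.05 ± 0.14, Casq2 by 0.08 ± 0.08 and Actc1 by 0.04 ± 0.09 on the log2 scale. Tnni3, the adult cardiac troponin I, was at -0.28 ± 0.10 (adjusted p = 0.191). Of the 25 cardiac calcium cycling genes and the 26 cardiac sarcomere genes, 0 passed in edgeR or in DESeq2, with medians of -0.06 and -0.01; 4 and 2 had an unadjusted p under 0.05.

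Markers of skeletal muscle fibres were checked beside this group. Of 18 listed, 17 were in the table, 11 were tested and 7 passed, all higher; all 7 are also among the 10 genes above, so the marker count is the same evidence. Their sum was 242 to 655 CPM in floxed and 473 to 1508 CPM in Cre hearts, mostly Acta1; without Acta1 it was 43.9 to 77.6 against 74.3 to 112 CPM. The myosin genes that define adult fast fibres were close to 0 in both genotypes: Myh1 had 1 count over the 8 floxed and 13 over the 8 Cre libraries, and Myh2 had 5 and 5. Tnnc2, Actn3 and Pvalb reached at most 0.286, 0.245 and 0.483 CPM in any heart. Satellite cell and myoblast markers summed to 0.393 to 1.26 CPM and 0.491 to 0.993 CPM. Myh4 was not analysed here.

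**Figure D2:**
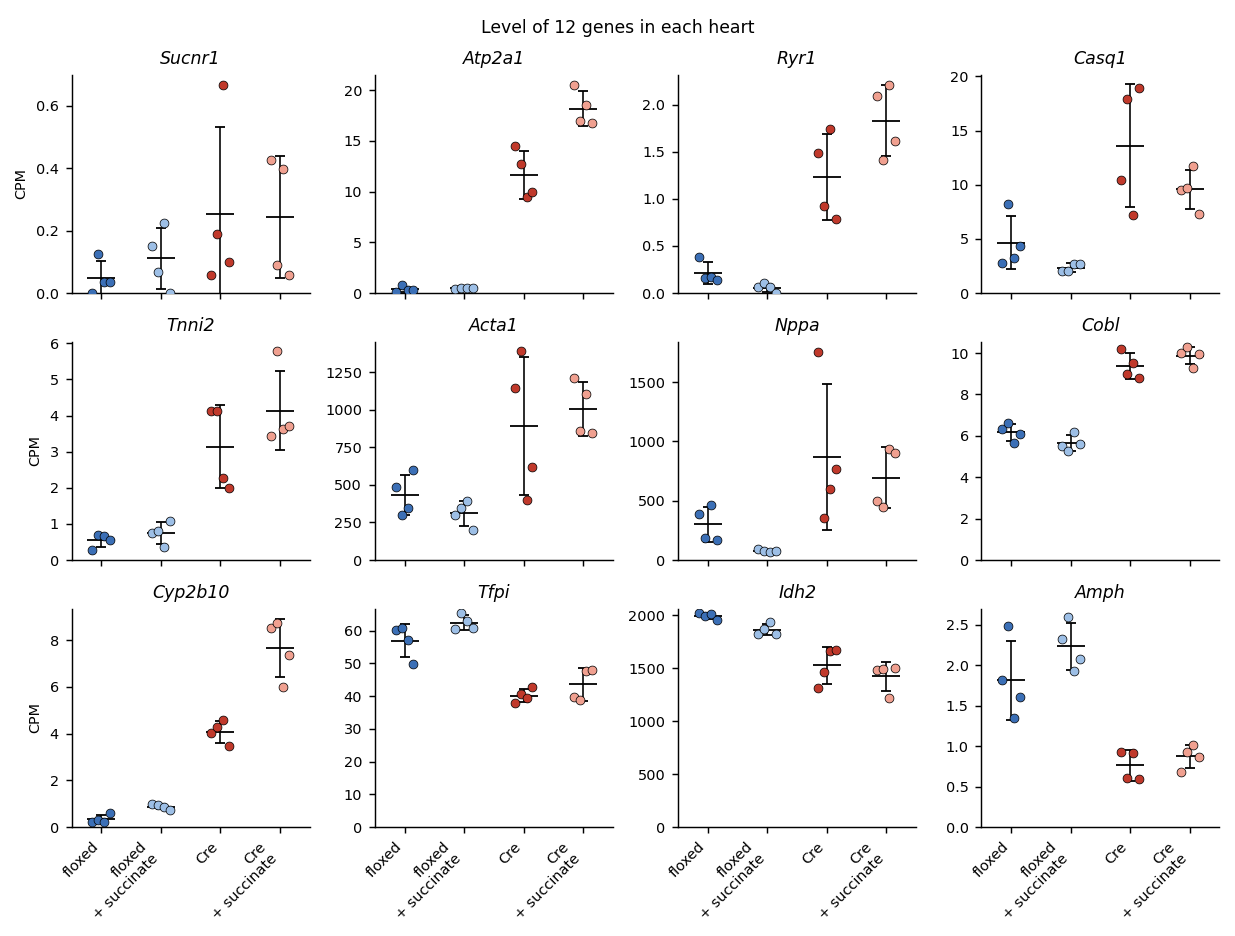
CPM (vertical axis, linear from 0) in each heart for 12 genes, with dots for hearts and bars for the mean and SD of each group of 4. The lower SD bars of Sucnr1 in floxed and in Cre hearts without succinate are clipped at 0. The Cre values of Atp2a1, Ryr1, Tnni2, Cobl and Cyp2b10 all lie above the floxed values, those of Tfpi, Idh2 and Amph all lie below, and those of Sucnr1, Casq1, Acta1 and Nppa overlap.

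Of 20 tested cardiac stress and fetal genes, 5 rose (Nppa, Acta1, Ankrd1, Uchl1 and Tnni1), 0 fell and 15 did not pass, against 1.18% of all tested genes that were higher; the median difference was 0.43. Acta1 and Tnni1 are also among the 10 skeletal-type genes above and are the same evidence, and Tnni1 met the filter only through the Cre hearts. Nppa, the atrial natriuretic peptide gene, was at 63.4 to 466 CPM in floxed hearts (median 130.4) and 353 to 1757 CPM in Cre hearts (median 680.3). It overlapped between genotypes through floxed hearts without succinate and differed by 2.29 ± 0.40 (4.91-fold, adjusted p = 0.00828). Uchl1, a ubiquitin hydrolase best known from neurons, was at 5.83 to 8.98 CPM against 11.0 to 19.3 CPM, with no overlap (0.91 ± 0.08, adjusted p = 4.35e-06). Ankrd1, a stretch-responsive nuclear and sarcomeric protein named here outside the rule, differed by 0.72 ± 0.14. The classical markers Nppb, at 0.44 ± 0.30 (adjusted p = 0.571), and Myh7, the slow myosin of the fetal ventricle, at -0.12 ± 0.34 (adjusted p = 0.923), did not pass. Gdf15, a stress-induced secreted factor, was at 1.23 ± 0.34 (adjusted p = 0.0807).

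Nppa is also an atrial gene, and the summed level of the atrial markers rose in Cre hearts mainly through it. Of 10 atrial markers 6 were tested: Nppa and Dkk3 passed as higher, Kcnj3 as lower and 3 did not pass. Of these 6, 5 had positive values, and the median was 0.37. The sum of the 10 was 142 to 526 CPM in floxed and 404 to 1816 CPM in Cre hearts. Without Nppa it was 40.0 to 93.0 CPM (median 75.8) against 51.7 to 74.7 CPM (median 58.9). Kcnj3, which fell, made up much of that remainder, with means of 44.7 CPM in floxed and 28.9 CPM in Cre hearts. The sum without Nppa therefore says little about the other markers. The defining atrial genes Sln, Myl7, Bmp10 and Mybphl stayed at or below 0.359 CPM in every heart and were too low to be tested. Summed over the floxed and the Cre libraries, Bmp10 had 6 and 33 counts and Mybphl 3 and 26. Myl7 had 24 and 31 counts and Sln 2 and 5. With the log2 atrial sum as a covariate, 70 genes passed over the whole table and 5 of the skeletal-type list: Atp2a1 (5.06), Tnni1 (2.77), Tnni2 (2.65), Ryr1 (2.64) and Casq1 (2.18 on the log2 scale). Nppa, which makes up most of the covariate, was then at 0.22 (adjusted p = 0.603), and Acta1 at 1.36 (adjusted p = 0.190).

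Of 21 tested sodium and potassium channel genes on the list, 1 rose, 1 fell and 19 did not pass, with a median of -0.12. Over all tested genes, 1.18% were higher and 0.589% lower. Kcnj3, a subunit of the acetylcholine-activated potassium channel, was at 21.8 to 58.5 CPM in floxed (median 47.8) and 20.8 to 38.3 CPM in Cre hearts (median 28.1). The groups overlapped, and it fell by 0.65 ± 0.13 (adjusted p = 0.0143). Kcnj14, an inward rectifier outside the list, was at 0 to 1.14 CPM against 1.46 to 2.74 CPM, with no overlap, and differed by 2.03 ± 0.38.

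In adrenergic and cyclic nucleotide signalling, 1 of 23 tested genes rose and 1 fell, against 1.18% and 0.589% of all tested genes. Grk5, a kinase that desensitises adrenergic receptors, was at 44.3 to 70.7 CPM in floxed and 71.6 to 102 CPM in Cre hearts. It did not overlap and rose by 0.48 ± 0.07 (adjusted p = 0.00136). Adra1a, the alpha-1A adrenergic receptor, fell by 0.69 ± 0.14 (adjusted p = 0.0135), from 25.8 to 77.3 CPM down to 20.1 to 44.1 CPM. Pde7a, a cyclic AMP phosphodiesterase outside that list, fell by 0.59 ± 0.12.

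Metabolic genes that passed were mostly lower in Cre hearts, and the shifts were small. Idh2, the mitochondrial NADP-dependent isocitrate dehydrogenase, was at 1821 to 2018 CPM in floxed hearts (median 1944) and 1215 to 1672 CPM in Cre hearts (median 1486). The ranges were separate, and it fell by 0.41 ± 0.08 (adjusted p = 0.00665). It was the 1 gene of 20 in the TCA cycle list to pass, against 0.589% of all tested genes that were lower. Of the 20, 0 had a positive value, and their median was -0.12. DESeq2 called 3 of them, and 8 had an unadjusted p under 0.05. Bckdk, the kinase that restrains branched-chain amino acid oxidation, fell without overlap from 86.0 to 97.6 CPM down to 68.0 to 79.2 CPM (-0.32 ± 0.05, adjusted p = 0.0030). It was the 1 call among 24 genes of ketone and branched-chain amino acid use, against 0.589% of all tested genes that were lower. Of these 24, DESeq2 called 2, and 12 had an unadjusted p under 0.05. Over all 14607 tested genes, DESeq2 called 4.05%, and 2022 had an unadjusted p under 0.05 in edgeR.

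Of 26 tested fatty acid oxidation genes, 2 had a positive value, and the median was -0.17. DESeq2 called 3, and 11 had an unadjusted p under 0.05, against 4.05% and 2022 of all 14607 tested genes. In edgeR 1 fell and 0 rose, against 0.589% and 1.18% of all tested genes. The 1 was Eci1, an isomerase for unsaturated fatty acids, at 276 to 365 CPM against 189 to 311 CPM (-0.35 ± 0.09, adjusted p = 0.0448), and its call was lost in 11 of the 16 fits that left out 1 heart. Ucp2, a mitochondrial carrier on the PPAR-alpha target list, rose by 0.57 ± 0.11, from a median of 82.6 to 133 CPM (adjusted p = 0.0130). Pfkfb1, a regulator of glycolytic flux, fell by 0.88 ± 0.18. It was the 1 call among 26 glycolysis genes, against 0.589% of all tested genes that were lower. Slc2a12, a glucose transporter, fell by 0.79 ± 0.15 and Acsl6, an acyl-CoA synthetase, by 0.66 ± 0.12.

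Genes nearest the study's own subjects did not pass. Of 19 tested genes of succinate handling and signalling, 0 passed in edgeR, 5 had an unadjusted p under 0.05, DESeq2 called 1, and the median was -0.10; the smallest p-values were those of Sdhc, a subunit of succinate dehydrogenase, at -0.20 ± 0.06 (adjusted p = 0.109), and Suclg2, of succinyl-CoA synthesis, at -0.18 ± 0.06 (adjusted p = 0.156). Sdhc passed without replicate 3 of the Cre hearts not given succinate (-0.23, adjusted p = 0.0489). Among the 16 NAD synthesis and transport genes tested, 0 passed in edgeR, 3 had an unadjusted p under 0.05 and DESeq2 called 1. Nmnat3, the mitochondrial NAD-forming adenylyltransferase, was at -0.23 ± 0.07 (adjusted p = 0.102), and the nucleoside transporter Slc29a1 at -0.16 ± 0.06 (adjusted p = 0.188). Of 17 NAD-consuming enzymes and 13 mitochondrially encoded genes, 0 passed in edgeR or DESeq2, with 4 and 1 at an unadjusted p under 0.05. A missed threshold does not show that these genes were equal.

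A pair of enzymes that the integrated stress response is known to induce rose. Mthfd2, the mitochondrial folate enzyme, rose from 2.16 to 4.54 CPM in floxed hearts (median 3.49) to 5.67 to 13.4 CPM in Cre hearts (median 8.28), and Psat1, of serine synthesis, from 3.25 to 5.65 CPM to 6.15 to 7.96 CPM. Neither overlapped, and the differences were 1.33 ± 0.17 and 0.62 ± 0.10 (adjusted p = 0.000228 and 0.00256). They were 2 of 25 tested genes of that list, whose median was -0.02, against 1.18% of all tested genes that were higher. Of 20 heat shock chaperones, 0 passed in edgeR or DESeq2 (3 at an unadjusted p under 0.05).

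Of 15 tested xenobiotic-metabolism genes, 2 rose and 0 fell, against 1.18% and 0.589% of all tested genes. Cyp2b10, a cytochrome P450 of drug metabolism with close paralogs between which reads are uncertain, was at 0.207 to 0.966 CPM in floxed and 3.45 to 8.75 CPM in Cre hearts (3.30 ± 0.18, adjusted p = 8.92e-10). Cyp2e1, which oxidises ethanol and is abundant in liver, differed by 2.90 ± 0.48 from 0.0345 to 0.180 CPM up to 0.132 to 2.02 CPM, with overlap. Cyp2e1 met the filter only through the Cre hearts and could only be called higher. Tfpi, the tissue factor pathway inhibitor, fell from 49.8 to 65.4 CPM down to 37.9 to 48.1 CPM without overlap (-0.54 ± 0.06, adjusted p = 3.25e-05), the 1 call among 15 coagulation genes. Perp, a membrane protein induced by p53, rose by 0.26 ± 0.06 (adjusted p = 0.0369), the 1 call among 26 genes of the p53 and DNA damage list, whose median was 0.07; the call was lost in 13 of the 16 fits that left out 1 heart.

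Extracellular matrix genes had positive values throughout the list, with few calls. Over all 14607 tested genes, edgeR called 1.77%, DESeq2 called 4.05% and 2022 had an unadjusted p under 0.05. All 30 tested members of the matrix and fibrosis list had positive values, with a median of 0.30, but 1 passed in edgeR, 7 in DESeq2 and 19 at an unadjusted p under 0.05. The 1 was Col8a1, a short-chain collagen of vessels and remodelling tissue, at 15.4 to 24.1 CPM against 23.3 to 62.3 CPM (0.76 ± 0.16, adjusted p = 0.0204). Fibroblast markers moved the same way, with 12 of 12 positive, 1 of them (Lum) past the threshold, and a sum of 2651 to 3918 CPM in floxed and 3559 to 5178 CPM in Cre hearts; their part in the matrix values was not tested. The 26 genes of MHC class I and interferon response also all had positive values, with a median of 0.19, and 0 passed in edgeR or DESeq2 (5 at an unadjusted p under 0.05). Of 12 endothelial markers, 1 passed, Aqp1, as lower. Macrophage, pericyte and smooth muscle, conduction system and lymphocyte markers had 0 calls in edgeR and in DESeq2, with 1 macrophage marker at an unadjusted p under 0.05. The lists of MHC class II, immediate early and circadian clock genes (8, 23 and 19 tested) likewise had 0 calls by both tools, with 0, 1 and 2 at an unadjusted p under 0.05. Of 25 translation initiation factors, 0 passed in edgeR, 4 had an unadjusted p under 0.05 and DESeq2 called 2.

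**Figure D3:**
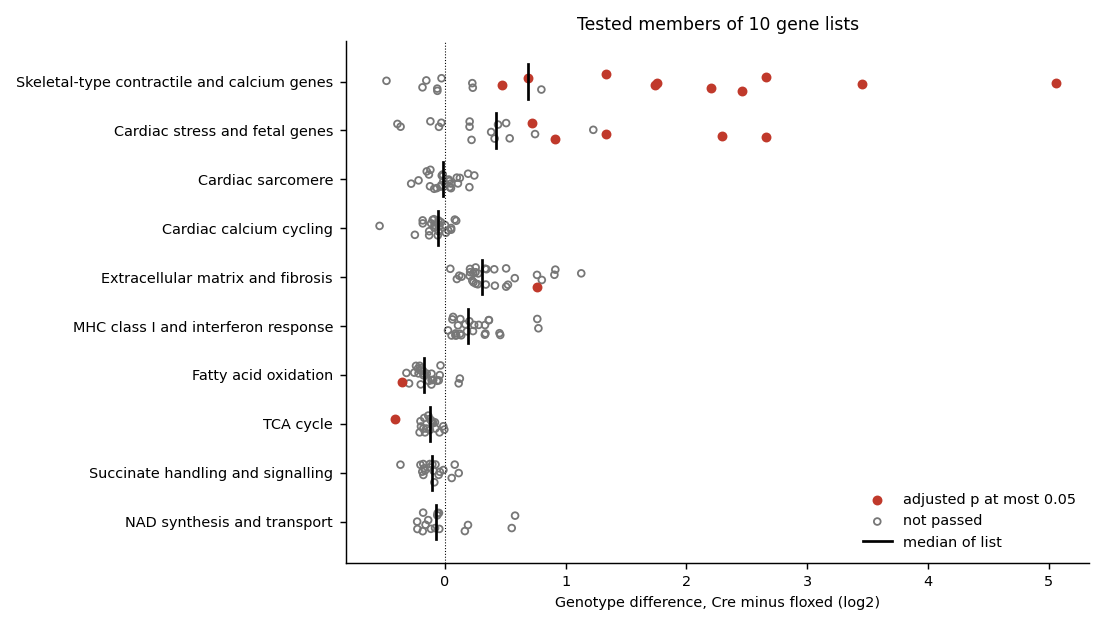
Log2 genotype difference (Cre minus floxed, horizontal axis) of each tested member of 10 gene lists, filled where the adjusted p was at most 0.05, with a bar at the median of each list. Skeletal-type genes spread to the right up to 5.06, while the sarcomere and calcium cycling lists centre near 0 and the TCA cycle list lies wholly below 0.

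The remaining named genes came from the ends of the distribution and belong to many functions. Cobl, an actin nucleator, had some of the tightest separation, at 5.27 to 6.62 CPM against 8.81 to 10.3 CPM (0.68 ± 0.07, adjusted p = 3.25e-05). Epn3, an endocytic adaptor, was at 5.32 to 12.6 CPM against 13.97 to 29.0 CPM (1.15 ± 0.14). Tbx15, a T-box transcription factor of limb muscle and fat, was at 0.161 to 0.851 CPM against 0.856 to 3.46 CPM (2.22 ± 0.31). None of these 3 overlapped. Ndnf, a secreted factor first known from neurons, rose by 1.57 ± 0.22, Prkcz, an atypical protein kinase C, by 1.46 ± 0.23, Kif1a, a kinesin of axonal transport, by 1.46 ± 0.25 and the kelch-repeat gene Klhdc7a by 1.33 ± 0.20, all 4 without overlap.

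On the lower side, Amph, the membrane-bending protein amphiphysin, fell from 1.35 to 2.60 CPM down to 0.592 to 1.01 CPM without overlap (-1.33 ± 0.17, adjusted p = 0.000204). Tac1, the precursor of substance P, fell by 1.23 ± 0.22 and Ubxn10, a cilium-linked UBX-domain protein, by 0.85 ± 0.16. Ccl11, the eosinophil chemokine eotaxin, fell by 1.01 ± 0.25 and Tuba4a, an alpha-tubulin, by 0.65 ± 0.16, but these calls were lost in 11 and 12 of the 16 fits that left out 1 heart. Prr33 fell by 0.68 ± 0.15 and Stum by 0.59 ± 0.13, lost in 2 and 3 of them.

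Chromosome 7 carried more of the genotype calls than any other. Of the 258 genes that passed and could be placed, 53 (20.5%) lay on it, against 7.64% of the tested genes; 4.79% of its 1107 tested genes passed, against 1.53% of the 13388 tested genes on all other chromosomes and 2.77% on chromosome 19, the next highest. The calls ran both ways, 29 higher and 24 lower, and 20 of the non-overlapping genes lay there. Of the 50 genes at least 2-fold higher, 19 were on chromosome 7, and none of its calls was lower by that much. Across the fits that left out 1 heart, chromosome 7 held 37 to 67 calls.

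**Figure D4:**
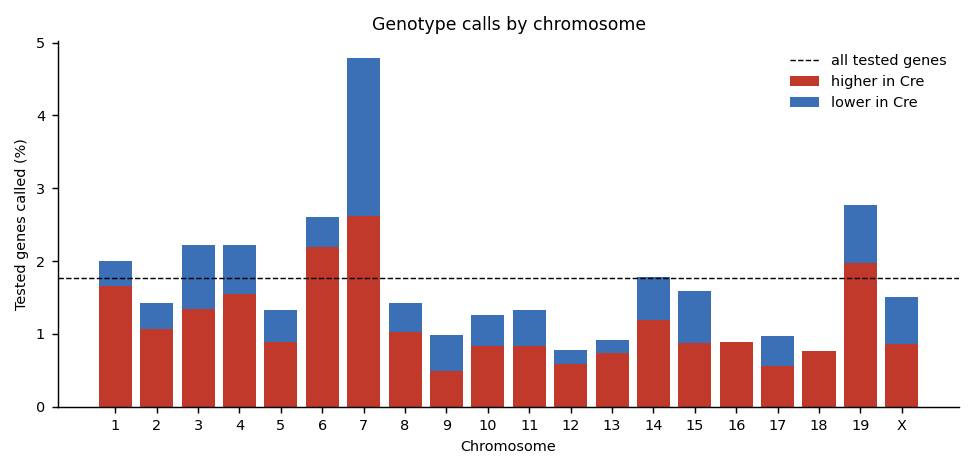
Percent of tested genes that passed on each chromosome (vertical axis), split into those higher (red) and lower (blue) in Cre hearts, with a dashed line at 1.77%, the value over all tested genes. Chromosome 7 reaches 4.79%.

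The chromosome 7 genes were spread along its length. When its tested genes were put in order and cut into 10 blocks of 110 or 111, every block held between 1 and 10 calls, with 10 in the seventh, 9 in the tenth and 7, all lower, in the ninth. Among those already described are Atp2a1, Ryr1, Tnni2, Tnnt3, Tnnt1, Mybpc2, Cyp2b10, Cyp2e1, Kcnj14, Idh2, Ucp2 and Bckdk. Igsf23, an immunoglobulin-superfamily gene, rose by 1.66 ± 0.27 and Urah, of uric acid breakdown, by 1.76 ± 0.33. Of the 19 tested skeletal-type genes, 7 lay on chromosome 7 and 6 of these rose, while 4 of the 12 elsewhere rose. Immediate neighbours that both passed on chromosome 7 were Cyp2e1 with Urah, Urah with Scgb1c1, and Prr33 with Tnnt3, the last in opposite directions (-0.68 and 2.20). Strand is not given, so reads of overlapping genes cannot be told apart.

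**Figure D5:**
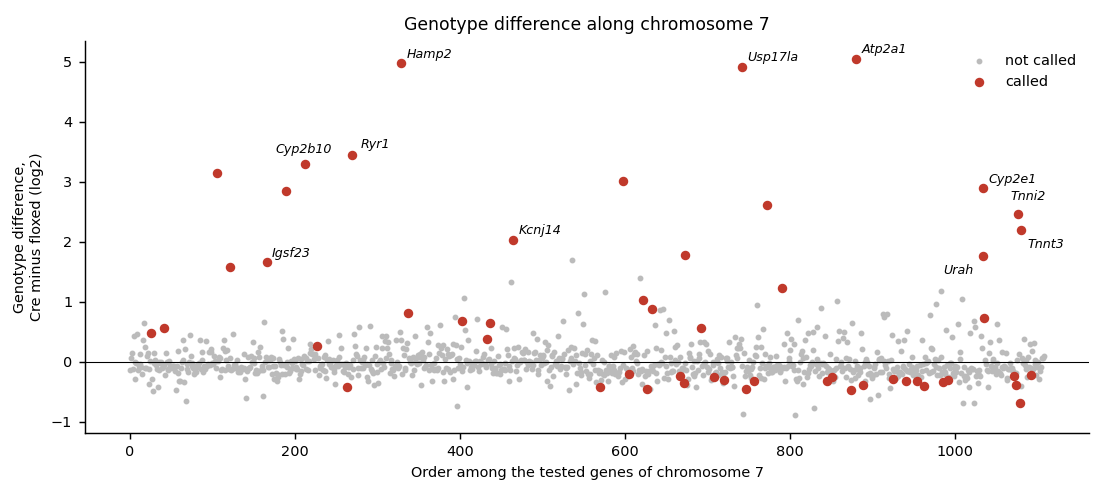
Log2 genotype difference (Cre minus floxed, vertical axis) of the 1107 tested genes of chromosome 7 in gene order (horizontal axis), with the 53 that passed in red. Large positive differences are scattered along the chromosome, and the lower calls lie mainly in its later part.

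The genotype effect was not shown to differ between the succinate states. The interaction of genotype with succinate gave 0 calls among 14607 genes in edgeR; 709 had p under 0.05 before adjustment, and no adjusted p was below 0.930. For Atp2a1 the log2 difference was 4.91 without and 5.18 with succinate, and for Tfpi -0.53 and -0.55. Wider gaps that did not pass included Ryr1 (2.49 and 4.87), Nppa (1.47 and 3.13) and Kcnj14 (1.06 and 3.39), where the floxed hearts given succinate were lowest, and in the other direction Urah (2.65 and 1.09).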

How the data were processed

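Bulk RNA of 16 hearts was profiled, in 4 groups of 4. The deposited table holds whole-number counts for 24371 genes, and a second deposited table holds FPKM that the authors made from them. The submitters' processing notes name DESeq2, HTSeq, HISAT2, fastp and R 3.2.0 and the GRCm39 build. Tool roles, strandedness and the handling of multiply mapped reads are not given in the sources used here, and near-identical genes are uncertain for that reason.

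Counts were tested as deposited with edgeR 4.0.16 (R 4.3.3): genes kept by filterByExpr (minimum count of 10), TMM factors of 0.946 to 1.09, an additive design of succinate and genotype over all 16 hearts (13 residual degrees of freedom), a robust quasi-likelihood F-test and Benjamini-Hochberg adjustment over 14607 genes to 0.05. Standard errors were derived from the F statistic. Levels are CPM by library total, and the floor of 3 counts covers counting error only. The standard errors and SDs include the spread between libraries. The script was tested on simulated data. Within groups, r between libraries was 0.978 to 0.988, and all pairs differed beyond sampling noise.

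The members and the 26 gene lists were chosen with earlier results of these data known. The text names Sucnr1, the 15 highest and 15 lowest passing differences among plain symbols with mean log2 CPM no lower than 0, the 10 of smallest p, up to 4 passing members of each list, and the 2 of smallest p in central lists with none; others are said to be named outside the rule or after their values were seen. Chromosomes, gene order and start-site windows come from RefSeq tables of GRCm38.p6, matched by Entrez identifier (23549 genes), so no coordinates of the files' build are given. Alternatives were DESeq2 1.42.0, limma 3.58.1 (voom with weights, and log2 FPKM plus a pseudocount of 1 or 0.1), other scaling, filters, designs and covariates, and leaving out each heart. Shared replicate numbers were not used to pair the samples in the main fit. A few genes chosen by this rule are not reported here.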

Additional observations from a re-analysis of the deposited data

Results flagged for a closer look

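Within each group of 4 hearts, the highest or lowest value of every named gene was set against the other 3, and 14 of 208 such groups had 1 heart far from the rest; chance gives about 1 in 20. In replicate 3 of the Cre hearts given succinate, Col8a1 was at 62.3 CPM against 27.8 to 29.1 in the others, Idh2 at 1215 CPM against 1483 to 1500 and Acsl6 at 7.35 CPM against 9.88 to 10.1. In replicate 1 of the floxed hearts given succinate, Acsl6 was at 19.6 CPM against 13.5 to 14.03, Igsf23 at 0.815 CPM against 0.539 to 0.579 and Prkcz at 0.785 CPM against 0.515 to 0.541. In replicate 2 of the Cre hearts given succinate, Tnni2 stood at 5.78 CPM against 3.43 to 3.72 and Sdhc at 444 CPM against 396 to 399. Kcnj14 was at 1.53 CPM in replicate 4 of the same group, against 2.27 to 2.41. Among Cre hearts without succinate, Uchl1 was at 19.3 CPM and Suclg2 at 144 CPM in replicate 1, against 15.5 to 15.8 and 161 to 163, and Cyp2e1 was at 0.856 CPM in replicate 2, against 0.132 to 0.190. Among floxed hearts without succinate, Ryr1 was at 0.386 CPM in replicate 1, against 0.136 to 0.173, and Pde7a at 36.6 CPM in replicate 2, against 55.7 to 59.6.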

How the results depend on the processing

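The count of 259 genes was 592 with DESeq2, 120 without the succinate term, 3 in the hearts without succinate alone, 142 in those given it alone and 70 with the atrial score as a covariate, 21 of them among the 259; that score itself differed by genotype. Leaving out 1 heart gave 152 to 344 calls, the lowest without replicate 3 of the Cre hearts given succinate. The higher genes made up 66.8% of calls, 77.5% without the succinate term, 76.4% on log2(FPKM + 1) and 100% in the hearts without succinate. The replicate block gave 294 calls, 237 of them shared with the 259. Of 8 same-numbered genotype pairs, 2 correlated above 0.1. Both were pairs of replicate number 1, at 0.269 without and 0.321 with succinate, against at most 0.245 for differently numbered pairs. The labels do not say what the numbers mean, so they were taken as sample names, and a factor shared by number 1 was not tested. Without replicate 4 of the floxed and replicate 1 of the Cre hearts not given succinate, a choice made after seeing the data, 258 passed, 9 of the skeletal-type list among them. The Sucnr1 difference ranged from 0.109 to 0.195 CPM when 1 heart was left out. Of 1660 values of named genes under these alternatives, 1472 kept direction and side of the threshold, 183 lost it, 3 gained it and 2 reversed, both with the atrial covariate: Eci1 at 0.0033 and Ccl11 at 0.0242; the cause was not tested. Of 47 named genes that passed, 7 lost the call in some fit that left out 1 heart. Depth limits Sucnr1, Tnni1 and the other genes below 1 CPM.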

Other observations

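Several groups outside the lists were chosen after their values were seen, and their direction is therefore a description. Matrix and matrix-binding genes among those higher in Cre hearts included Col14a1 (0.90 ± 0.18 on the log2 scale), Cilp, a cartilage-type matrix protein (1.23 ± 0.27), Svep1 (0.73 ± 0.15), Bgn, the proteoglycan biglycan (0.58 ± 0.13), and the neighbouring basement membrane collagens Col4a3 and Col4a4 (0.71 ± 0.16 and 0.57 ± 0.11). The Wnt antagonists Sfrp1 and Frzb were higher by 0.50 ± 0.12 and 0.69 ± 0.14. Complement genes were also among them: Masp1, which starts the lectin pathway, at 4.10 to 10.8 CPM in floxed against 11.2 to 17.9 CPM in Cre hearts, with no overlap (0.84 ± 0.14), Cfb (0.91 ± 0.20), C4b (0.68 ± 0.15) and C1ra (0.43 ± 0.09). Fibroblast markers had higher sums in the same hearts, and their part in these values was not tested.

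Among the genes lower in Cre hearts were further enzymes of metabolism. Me3, the mitochondrial NADP-dependent malic enzyme, was at 80.4 to 94.2 CPM in floxed and 57.6 to 70.3 CPM in Cre hearts, with no overlap (-0.45 ± 0.06, adjusted p = 0.000572). Khk, ketohexokinase of fructose breakdown, fell by 0.42 ± 0.07 without overlap. Sord, which makes fructose from sorbitol, fell by 0.38 ± 0.07, and Ogdhl, a relative of oxoglutarate dehydrogenase, by 0.52 ± 0.09. Ech1, of fatty acid oxidation, and Dgat2, of triglyceride synthesis, fell by 0.42 ± 0.09 and 0.35 ± 0.07.

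A few genes were near absent from floxed hearts. Hamp2, a hepcidin gene with a close paralog, had at most 0.0604 CPM in floxed and 0.380 to 1.41 CPM in Cre hearts, and Usp17la, a deubiquitinase of a multigene family, at most 0.0359 CPM against 0.0987 to 0.613 CPM. Reads of both are uncertain between copies. Myh8, the perinatal skeletal myosin, fell below the filter and had 0 counts in all 8 floxed libraries and 20 over the Cre libraries, where every one held at least 1.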
